A study of Saccharomyces cerevisiae with 5 samples.

Results

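The seripauperin (PAU) and COS genes are families of many like copies that lie mostly near the ends of yeast chromosomes. They were followed here in RNA that co-precipitated with 2 mRNA export proteins of the budding yeast Saccharomyces cerevisiae. Members were all genes whose symbol, in the array annotation or in RefSeq, was PAU or COS followed by digits only. This gave 35 genes of the 5539 measured, 23 seripauperin and 12 COS genes, read from 70 of 11138 named spots. RefSeq lists 36 such genes, and PAU9 was not analysed here. No spot was matched as a member by only 1 of the 2 sources.

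Each of the 5 arrays compared 2 channels: channel 1 held cDNA of RNA recovered with zz-tagged Yra1, an RNA-binding adaptor, and channel 2 that of RNA recovered with zz-tagged Mex67, the principal mRNA export receptor. The zz tag is an antibody-binding part of protein A, and the labels name no strain, growth condition or dye. Values are log2 ratios relative to the median of all spots on an array, and the direction of the quotient between the channels is unknown, so "lower" and "higher" describe the deposited ratio and name neither precipitate. Replicates 2 to 5 shared a platform with 2 spots per member and entered the test. Replicate 1 came from a different platform, with 41 member spots, and its values are given separately. On it, duplicate spots of 1 gene differed by a median of 0.77 over 1100 genes, against 0.72 for pairs of all genes. A value of 1 gene on replicate 1 is therefore weak support for a sign.

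Seripauperins are small proteins of the cell wall mannoprotein kind. Their genes are known to be repressed by oxygen and haem and induced in anaerobic growth, in the cold and in wine fermentation. COS proteins are membrane proteins that help sort ubiquitinated cargo into multivesicular bodies on the way to the vacuole. In both families many copies are nearly identical, so a cDNA of one can bind the spot of another, and the members are not separate measurements. COS111 shares only the name: it is known for resistance to the antifungal ciclopirox and is no relative of the other COS genes.

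By gene order in RefSeq, 18 of 23 seripauperin and 11 of 12 COS genes lay within 10 annotated genes of a chromosome end. The exceptions were PAU2, PAU5, PAU7, PAU17, PAU23 and COS111. Seripauperin genes were short, with a median length of 363 base pairs, against 1146 base pairs for COS genes. PAU23 and PAU24 also carry the older names DAN2 and DAN3.

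The array medians of the deposited ratios differed widely, at 0.32, 1.96, -2.81, -1.45 and -1.59 log2 units on replicates 1 to 5. Replicate 2 alone of the 4 tested arrays had a positive median, and its orientation is not settled by the labels. The titles of replicates 3 and 5 share a code whose meaning is not stated. Nothing in the labels ties the arrays to separate cultures, so the spread behind the p-values is that of these arrays alone and may be technical. On replicates 2 to 5, many spots held exactly the deposited value of a neighbouring spot: 28.6, 8.07, 14.6 and 37.4% of all 12800 spots, with or without a gene. A neighbouring spot here could be the second spot of the same gene. Among the 70 spots of the members, those with a shared value were 18, 7, 11 and 30. Values are therefore also given after subtracting the median of the surrounding spots of other genes (within 2 rows and columns), called the neighbouring level below.

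As families, with the values as deposited, both had medians below that of other genes on each of the 4 tested arrays, by a fraction of a log2 unit. The median of the seripauperin genes minus that of genes outside both families was -0.39, -0.20, -0.02 and -0.11 on replicates 2 to 5, a mean of -0.18 ± 0.16 (SD, n = 4), and 0.20 on replicate 1. This shift was about as large as its spread, and its sign on replicate 1 was the opposite. For the COS genes the shift was -0.28, -0.68, -0.24 and -0.34 on replicates 2 to 5, a mean of -0.38 ± 0.20 (SD, n = 4), and -0.04 on replicate 1. On replicate 3 the COS genes lay closest together, with 11 of 12 below the array median. After subtracting the neighbouring level, the seripauperin shift was -0.0096 ± 0.11 and below 0 on 1 of 4 arrays, and the COS shift was -0.23 ± 0.27 and below 0 on 3 of 4. With values shared between neighbouring spots left out, the seripauperin shift was -0.10 ± 0.21 and below 0 on 2 of 4 arrays, and the COS shift was -0.27 ± 0.28 and below 0 on 4 of 4. With the sign of replicate 2 turned, the seripauperin shift was 0.014 ± 0.26 and the COS shift -0.24 ± 0.39. The seripauperin median lay above the COS median on 3 of 4 arrays, by a mean of 0.20 ± 0.24, so the families were not apart by more than the spread.

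Counted by gene, 13, 16, 11 and 13 of 23 seripauperin genes were below the array median on replicates 2 to 5, and 10 on replicate 1. Of the 12 COS genes, 8, 11, 8 and 9 were below it on these arrays, and 8 on replicate 1. Among all genes the share below it was 48.6 to 50.3% on replicates 2 to 5. Averaged over the 4 arrays, 14 of 23 seripauperin genes (60.9%) and 10 of 12 COS genes (83.3%) were below 0, against 51.3% of all genes. These counts rest on the orientation of replicate 2: with that array turned they were 10 of 23 seripauperin genes (43.5%) and 7 of 12 COS genes (58.3%), against 47.3% of all genes. Within the seripauperin family, the 18 genes near a chromosome end had medians of -0.39, -0.18, 0.07 and -0.10 on replicates 2 to 5, against -0.10, -0.19, -0.24 and -0.31 for the other 5, so neither set was lower throughout. The median of the means was -0.35 for seripauperin genes and -0.31 for COS genes, against -0.02 for all genes. A single gene was measured less finely than these shifts: the 95% interval of its mean reached a median of 0.95 to either side for seripauperin, 0.85 for COS and 0.92 for all genes.

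**Figure D1:**
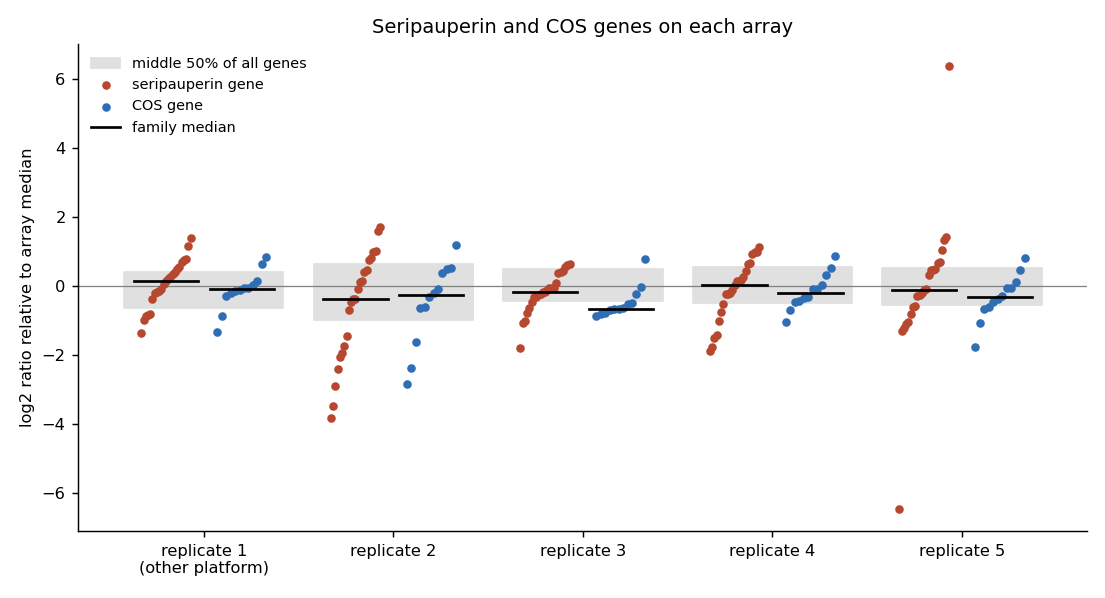
Log2 ratio relative to the array median (vertical axis) of every seripauperin and COS gene on each of the 5 arrays (horizontal axis); each point is 1 gene. On replicate 3, 11 of 12 COS genes lie below 0, and on replicate 5 PAU19 (6.37) and PAU7 (-6.48) lie far from the rest.

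No member passed the test across all genes, limma's moderated test of the 4 ratios against 0 with Benjamini-Hochberg adjustment, and neither did any other gene. The count was 0 of 35 members against 0% of all genes, at a lowest adjusted p of 0.834. Without adjustment (p under 0.05), 0 members were lower, against 3.99% of all genes, and 0 were higher, against 1.43%. Of the 35 members, 6 were below the array median on all 4 arrays, against 7.13% of all genes. These were PAU7 and PAU23, or 8.70% of the seripauperin genes, and COS2, COS3, COS7 and COS8, or 33.3% of the COS genes. The seripauperin share was near that of all genes and the COS share above it, a difference that was not tested since the copies share sequence. With replicate 2 turned, none of these 6 genes was below the median on all 4 arrays; the genes that were then numbered 1 of 23 seripauperin genes (PAU13) and 2 of 12 COS genes (COS4 and COS6), against 6.43% of all genes. PAU5 was the 1 member above the median on all 4 arrays, against 7.11% of all genes.

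Relative to the neighbouring level, 4 members were lower at an unadjusted p under 0.05 (PAU23, COS2, COS3 and COS5), against 2.8% of all genes, and none passed adjustment. The same 4 genes were below their neighbours on all 4 arrays, against 6.05% of all genes. PAU18 was the 1 member above its neighbours on all 4, against 6.61%. By family, 1 of 23 seripauperin genes (4.35%) and 3 of 12 COS genes (25%) were in the lower set. With replicate 2 turned, 2 of 23 seripauperin genes (PAU7 and PAU13) and 0 of 12 COS genes were below their neighbours on all 4 arrays, against 6.28% of all genes.

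Among the COS genes, COS8 was below the median on all 5 arrays. Its log2 ratio was -1.64, -0.24, -0.70 and -0.69 on replicates 2 to 5 and -1.34 on replicate 1. The mean over replicates 2 to 5 was -0.82 ± 0.59 (SD, n = 4; 95% interval -1.66 to 0.03; limma's unadjusted p = 0.0558). Relative to its neighbours the mean was -0.63. With replicate 2 turned the mean was 0.0041, so the direction of COS8 rests on the orientation of that array.

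COS2 encodes another family member and lies next to PAU24 on its chromosome. It had -2.39, -0.68, -0.44 and -0.06 on replicates 2 to 5 and -0.06 on replicate 1, a mean of -0.89 ± 1.03 with an unadjusted p of 0.0856. Replicate 2 held most of that mean. On replicate 4 the spots of COS2 differed by 1.02. Relative to its neighbours COS2 was at -2.25, -0.37, -0.83 and -0.91, a mean of -1.09 (unadjusted p = 0.0190). Neighbouring spots were thus above COS2 on each of the 4 arrays as deposited. The mean of COS2 was 0.30 with replicate 2 turned.

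COS3, whose product is known to act in salt resistance together with the sodium antiporter Nha1, was chosen after its values were seen. Its values were -0.10, -0.78, -0.11 and -0.06 on replicates 2 to 5 and -0.15 on replicate 1. These are low but close to the array median except on replicate 3. Relative to its neighbours COS3 was at -0.38, -0.66, -0.32 and -1.28, a mean of -0.66 (unadjusted p = 0.0238). On replicate 5, the array of the lowest of these, the neighbouring level was 1.22.

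COS7 had -0.21, -0.70, -0.09 and -1.09 on replicates 2 to 5, a mean of -0.52 ± 0.46, and -0.31 on replicate 1. It was below 0 on all 5 arrays. COS5 had -0.33, -0.53, -1.04 and 0.10, a mean of -0.45 ± 0.47, and 0.64 on replicate 1. Relative to its neighbours COS5 was close to constant, at -0.31, -0.58, -0.42 and -0.32, with an unadjusted p of 0.0327.

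COS1, COS4, COS6, COS9, COS10 and COS12 had no common sign over the arrays. COS4 had 0.48, -0.87, -0.36 and -0.62 on replicates 2 to 5, a mean of -0.34 ± 0.59. COS9 ran further apart, with 0.50, -0.68, 0.86 and -1.79 and a mean of -0.28 ± 1.20. On replicate 2 the spots of COS9 differed by 1.71. COS1 and COS12 had the highest means of the family, both near 0. For COS1 the 4 values were -0.63, -0.65, 0.51 and 0.80, a mean of 0.01 ± 0.76, and for COS12 they were 0.37, -0.04, 0.32 and -0.38, a mean of 0.07 ± 0.35. COS6 and COS10 had means of -0.14 and -0.11 with SDs of 0.89 and 0.61. COS10 was the 1 COS gene above the median on replicate 3, at 0.77.

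COS111, the unrelated bearer of the name, had the largest SD of the 12 COS genes. Its values were -2.86, -0.51, 0.02 and 0.46 on replicates 2 to 5 and -0.06 on replicate 1. The mean of -0.72 ± 1.48 rests on replicate 2, without which it was -0.01. Leaving COS111 out gave a COS family shift of -0.41 in place of -0.38.

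**Figure D2:**
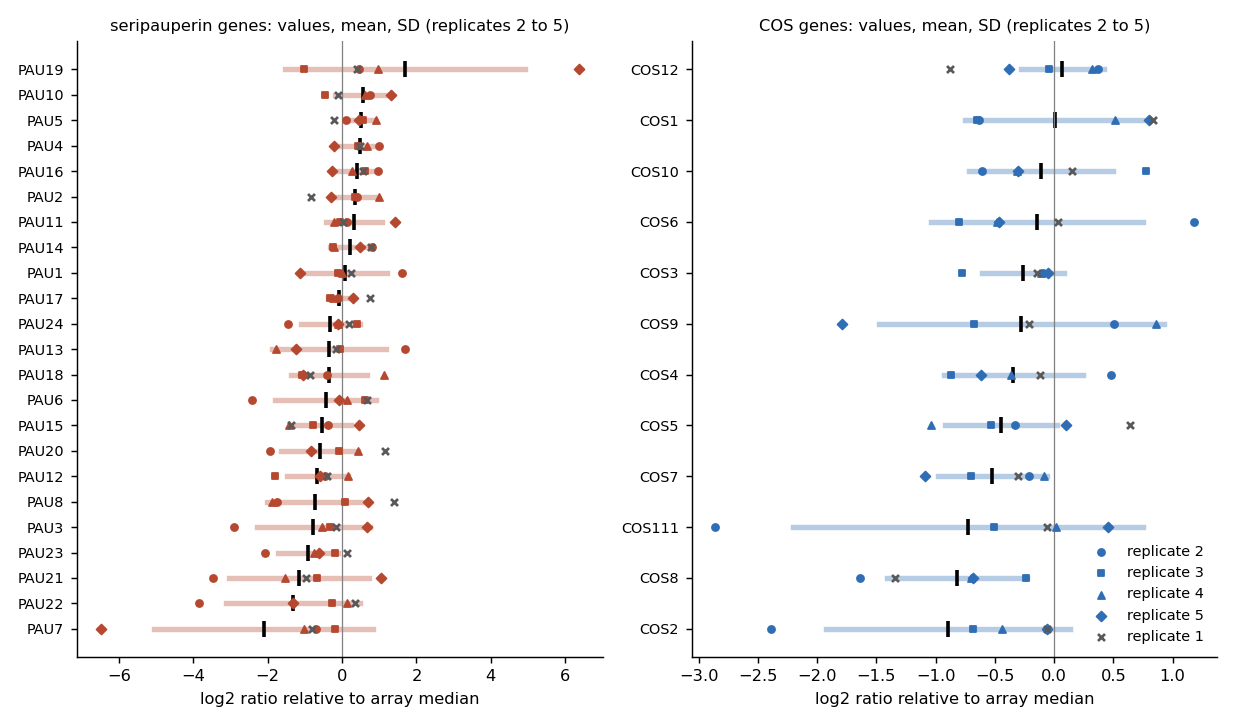
Log2 ratio relative to the array median (horizontal axis) of each seripauperin and COS gene (vertical axis), with points for replicates 2 to 5, the mean and the SD (n = 4) as a bar. PAU19, PAU7, PAU21 and PAU22 have wide bars, with SDs of 3.23, 2.94, 1.88 and 1.79, while PAU17 has an SD of 0.28. The points of PAU17 average spots that differed by 1.58 on replicate 2 and by 1.18 on replicate 4.

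The seripauperin genes ran from a mean of -2.10 to a mean of 1.70, and both ends came from replicate 5. PAU7 had -0.71, -0.20, -1.02 and -6.48 on replicates 2 to 5 and -0.82 on replicate 1, a mean of -2.10 ± 2.94. It was below the median on all 5 arrays, but without replicate 5 the mean was -0.64. On replicate 5 both of its spots held a value shared with a neighbouring spot and the neighbouring level was -5.90, so that relative to its neighbours PAU7 had a mean of -0.14.

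PAU19 lay at the other end. It had 0.46, -1.02, 0.98 and 6.37 on replicates 2 to 5 and 0.40 on replicate 1, a mean of 1.70 ± 3.23, which was 0.14 without replicate 5. There too both spots held a shared value, but the 2 spots held the same value, so each may have matched only the other. The neighbouring level of PAU19 there was 2.69. Relative to its neighbours the mean was 0.83.

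PAU23, also named DAN2 for its relation to the anaerobic mannoproteins, was the seripauperin gene with the smallest p. Its values were -2.07, -0.19, -0.76 and -0.62 on replicates 2 to 5 and 0.14 on replicate 1. On replicate 3 its spots differed by 1.42. The mean was -0.91 ± 0.81 (95% interval -1.85 to 0.03; unadjusted p = 0.0561). Unlike PAU7, it was as low relative to its neighbours, at -2.17, -0.52, -0.51 and -0.59, a mean of -0.95 with an unadjusted p of 0.0327. With replicate 2 turned the mean was 0.12.

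PAU21 and PAU22 are known to encode the same protein. PAU22 had -3.84, -0.26, 0.14 and -1.33 on replicates 2 to 5 and 0.35 on replicate 1, a mean of -1.32 ± 1.79. PAU21 had -3.48, -0.66, -1.53 and 1.04 on these arrays and -0.98 on replicate 1, a mean of -1.16 ± 1.88. Both were the lowest members on replicate 2, where they remained low relative to their neighbours, at -2.74 for PAU22 and -2.20 for PAU21. Their means were 0.60 and 0.58 with replicate 2 turned.

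PAU12 and PAU10 were the other seripauperin genes with small p or extreme mean. PAU12 had -0.46, -1.80, 0.17 and -0.58 on replicates 2 to 5, a mean of -0.67 ± 0.82 that was 0.01 relative to its neighbours. PAU10 had 0.74, -0.46, 0.62 and 1.32, a mean of 0.56 ± 0.74 that was 0.29 relative to its neighbours. PAU5, chosen after its values were seen and known for protection against a killer toxin, had 0.11, 0.55, 0.91 and 0.44 and a mean of 0.50 ± 0.33. Its mean relative to its neighbours was 0.14, and on replicate 1 it was at -0.22. The remaining 15 seripauperin genes had means of -0.77 to 0.47 and SDs of 0.28 to 1.54.

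Several seripauperin genes were low together on replicate 2. Besides PAU21, PAU22 and PAU23, PAU3 stood at -2.91, PAU6 at -2.42, PAU20 at -1.94, PAU8 at -1.75 and PAU24 at -1.46. For these other 5 genes, which were chosen after their values were seen, the neighbouring level was low as well, between -2.52 for PAU3 and -1.41 for PAU20. On the same array PAU13 was at 1.70 and PAU1 at 1.60, and their neighbouring levels were 1.31 and 1.49. Whether the position on the array contributed to these values was not tested beyond the subtraction.

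Across members, the ratio followed the neighbouring level on every tested array. Pearson's r over the 23 seripauperin genes was 0.81, 0.75, 0.95 and 0.94 on replicates 2 to 5, against 0.78, 0.64, 0.60 and 0.74 over all genes. Over the 12 COS genes it was 0.85, 0.46, 0.65 and 0.81. These are descriptions across genes of 1 array, which share its hybridisation and its layout. The exception was the COS genes on replicate 3: their median was -0.66, the median of their neighbouring levels was -0.12, and 0 of them held a shared value there.

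**Figure D3:**
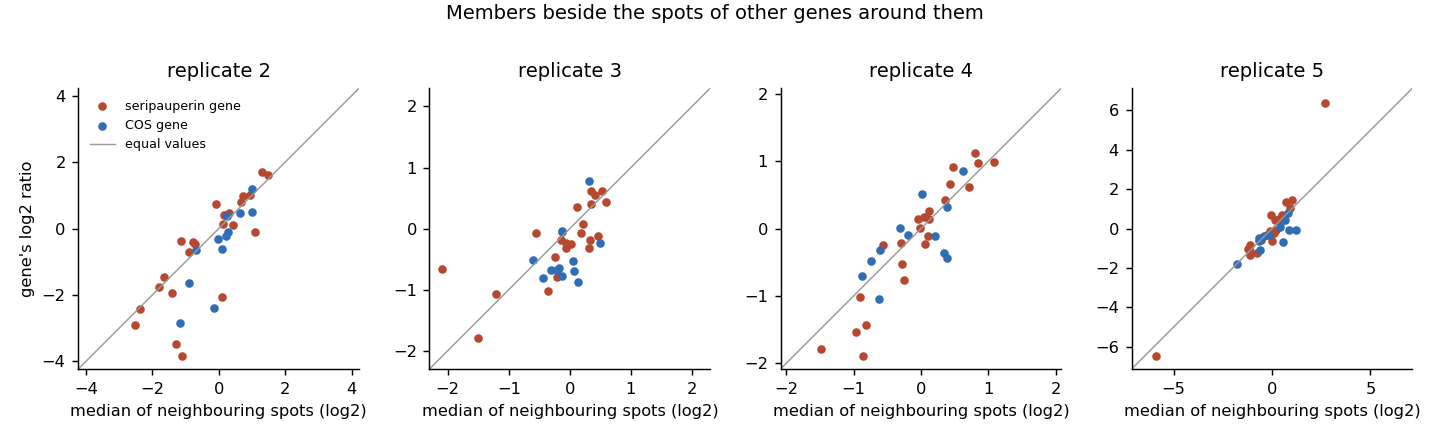
Log2 ratio of each member (vertical axis) against the median log2 ratio of the spots of other genes around it (horizontal axis) on replicates 2 to 5, seripauperin and COS genes in separate colours; the line marks equal values. On replicate 3, 9 of 12 COS genes lie below the line, and on replicate 5 PAU7 lies beside a neighbouring level of -5.90.

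Copies of a family might be read as 1 signal where a cDNA binds all of them, so the likeness of the members within an array was measured. The SD of the seripauperin genes on an array, divided by that of all genes, was 1.22, 0.77, 1.00 and 1.74 on replicates 2 to 5 and 0.91 on replicate 1. Its mean over replicates 2 to 5 was 1.18 ± 0.41, and 0.93 without PAU7 and PAU19, the genes of extreme value on replicate 5. The seripauperin genes were thus closer together than all genes on some arrays and further apart on others. For the COS genes this quotient was 0.93, 0.60, 0.59 and 0.57 on replicates 2 to 5, a mean of 0.67 ± 0.17, and 0.75 on replicate 1. The COS genes were thus closer together than all genes on each of the 5 arrays. The other gene lists described below had mean quotients of 0.78 (Y-prime helicases) to 0.99 (subtelomeric HXT genes), except 1.64 for the DUP240 relatives. A mean quotient under 1 was therefore not particular to the COS genes.

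The same order appeared in the differences between 2 genes of a family. Over 253 pairs of seripauperin genes, the median absolute difference was 1.55, 0.60, 0.88 and 1.03 log2 units on replicates 2 to 5. Over 66 pairs of COS genes it was 1.11, 0.27, 0.55 and 0.67, against 1.16, 0.69, 0.77 and 0.85 for pairs of all genes. Duplicate spots of 1 gene differed by a median of only 0.26, 0.23, 0.32 and 0.18 over all genes on replicates 2 to 5. On replicate 1 they differed by 0.77, more than the 0.72 of pairs of all genes there. Pairs of COS genes on replicate 3 came nearest to the duplicate difference of their array, and no other family value on replicates 2 to 5 was as close. Duplicate spots held the exact same value for some members, such as PAU1 on replicate 2, while the members were spread over 20 blocks. The duplicate difference need not equal that between spots placed apart on the array. Relative to the neighbouring level, the mean quotient to all genes over the 4 arrays was 0.90 for seripauperin pairs and 0.99 for COS pairs, against 1.14 and 0.71 without that subtraction. By this measure the closeness of the COS genes on the arrays was no longer seen once the neighbouring level was removed. By the SD quotient it was still seen, at 0.71 ± 0.13, and the seripauperin quotient was then 0.86 ± 0.30.

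**Figure D4:**
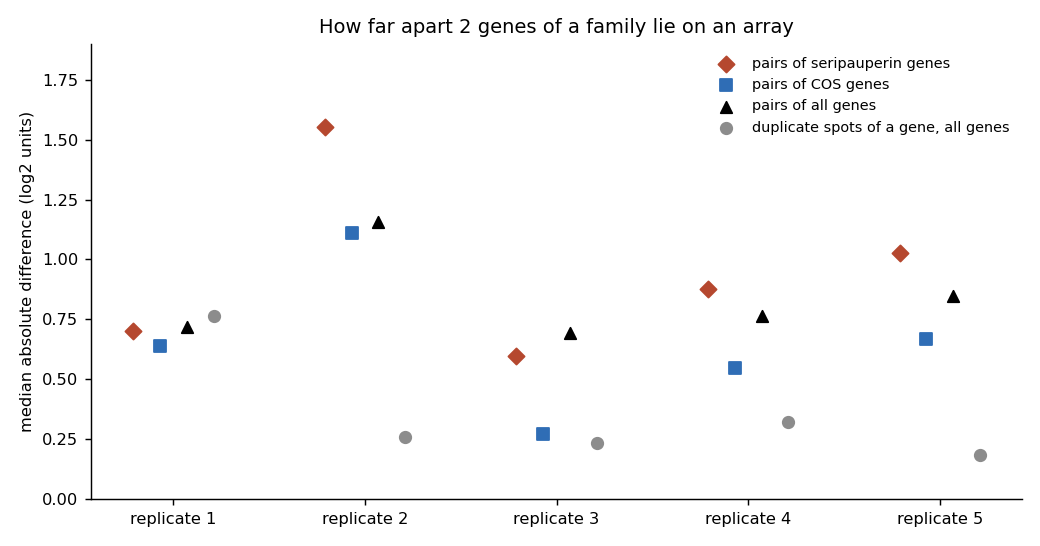
Median absolute difference in log2 units (vertical axis) between 2 genes on each of the 5 arrays (horizontal axis), for pairs of seripauperin genes, pairs of COS genes, pairs of all genes and duplicate spots of 1 gene. The seripauperin pairs lie above the pairs of all genes on replicates 2, 4 and 5, and the COS pairs lie below them on all 5 arrays.

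Pairs of seripauperin genes known to encode identical proteins, chosen after the values were seen, give the strictest comparison. The 3 pairs are PAU1 with PAU14, PAU6 with PAU18, and PAU21 with PAU22, each spotted in separate blocks of the array. PAU1 and PAU14 differed by 0.80, 0.13, 0.22 and 1.61 on replicates 2 to 5 and by 0.53 on replicate 1, less than a median pair of all genes on 4 of 5 arrays. PAU6 and PAU18 differed by 2.03, 1.70, 0.98 and 0.96 on replicates 2 to 5 and by 1.54 on replicate 1, more than a median pair on all 5 arrays. PAU21 and PAU22 differed by 0.36, 0.40, 1.67 and 2.36 on replicates 2 to 5 and by 1.34 on replicate 1. Genes with identical products thus did not always have like ratios.

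The subtraction made pairs in general closer. A median pair of all genes differed by 0.48, 0.49, 0.47 and 0.39 on replicates 2 to 5, against 1.16, 0.69, 0.77 and 0.85 before it. Relative to the neighbouring level, PAU1 and PAU14 were within 0.01, 0.40, 0.06 and 0.14 of each other on replicates 2 to 5. On replicates 2, 4 and 5 both spots of PAU1 held a shared value, but the same one, so each may have matched only the other. PAU6 and PAU18 were within 0.42, 0.04, 0.30 and 0.46, below the median pair on 3 of 4 arrays. The levels around these spots were far apart: on replicate 2 the neighbours of PAU6 were at -2.38 and those of PAU18 at -0.78. PAU21 and PAU22 still differed by 0.54, 1.71, 0.76 and 0.36, below the median pair on 1 of 4 arrays.

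**Figure D5:**
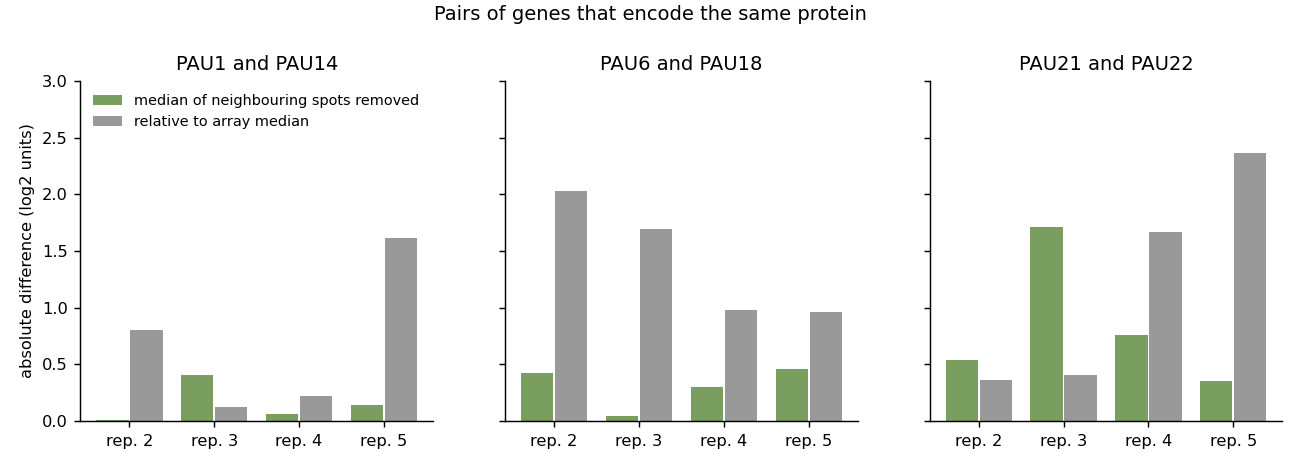
Absolute difference in log2 units (vertical axis) between the genes of 3 pairs that encode the same protein, on replicates 2 to 5 (horizontal axis), with bars after subtracting the median of neighbouring spots and bars relative to the array median. After the subtraction, the bars of PAU6 and PAU18 are at most 0.46, against 0.96 to 2.03 relative to the array median. A median pair of all genes, not drawn, differed by 0.39 to 0.49 after the subtraction and by 0.69 to 1.16 before it.

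Seripauperin and COS genes also lie side by side at some chromosome ends. PAU12 and COS6, next to each other, differed by 0.11 to 1.64 over the 5 arrays, less than a median pair of all genes on 3 of 5. PAU24 and COS2, also next to each other, differed by 0.05 to 1.08, less than a median pair on 4 of 5. COS8 and PAU13, with 1 gene between them, differed by 0.17 to 3.34, less than a median pair on 2 of 5. At the same spacing, COS10 and PAU6 differed by 0.15 to 1.82, less than a median pair on 4 of 5. COS12 and PAU11, also with 1 gene between them, differed by 0.02 to 1.80, less than a median pair on 3 of 5. From array to array the order of the members changed: over the 6 pairs of tested arrays, Pearson's r across seripauperin genes was -0.18 to 0.26, across COS genes -0.45 to 0.18, and across all genes -0.03 to 0.13.

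Genes that act with or resemble these families were counted in the same way, and none passed the test. The anaerobic mannoproteins of the DAN and TIR group had 3 of 7 means below 0 and a list shift of 0.09 ± 0.11. TIR4 was at -0.81 ± 0.82, DAN1 at -0.74 ± 0.69 and DAN4 at 0.48 ± 0.40. Relative to their neighbours these means were -0.06, -1.07 and 0.36, and with replicate 2 turned -0.07, -0.08 and 0.48. Of the 11 regulators of PAU and DAN/TIR genes, 6 had means below 0. UPC2, a sterol-responsive activator of anaerobic genes, was at 0.56 ± 0.30 and above the median on all 5 arrays. Of all 5539 genes, 366 kept 1 sign on all 5. The mean of UPC2 was 0.20 relative to its neighbours and 0.11 with replicate 2 turned. Of the other regulators, RIM101 was at 0.52 ± 0.36 and HAP1 at -0.90 ± 2.19. Of 17 genes of cargo sorting by the ESCRT machinery, the process COS proteins serve, 8 were below 0, and the list shift was 0.07 ± 0.15. VPS20, an ESCRT-III subunit, was at 0.73 ± 0.67, STP22 at 0.59 ± 0.61 and SRN2 at -0.81 ± 1.44. Relative to their neighbours these means were 0.09, -0.01 and -0.43, and with replicate 2 turned 0.52, -0.05 and 0.67. Of 9 genes of subtelomeric silencing 6 were below 0, with RIF1 at -0.82 ± 0.69 and RIF2 at 0.71 ± 0.31, both products of which bind Rap1 at telomeres. Relative to their neighbours RIF1 was at -0.82 and RIF2 at 0.17, and with replicate 2 turned they were at -0.18 and 0.36.

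Other multicopy families gave a background for the COS shift. The 6 AAD genes, which encode putative aryl-alcohol dehydrogenases and lie mostly near chromosome ends, all had means below 0 and a list shift of -0.43 ± 0.29, below 0 on 4 of 4 arrays. With replicate 2 turned, 4 of the 6 means were below 0 and the shift was -0.30 ± 0.46, below 0 on 3 of 4 arrays. The 5 measured DUP240 genes, relatives of COS, had 4 of 5 means below 0, a median of means of -0.72 and a shift of 0.01 ± 0.92. UIP3 was at -1.64 ± 3.02, MST28 at -0.72 ± 0.89 and PRM8 at 0.67 ± 0.40. Relative to their neighbours these means were -0.64, -0.21 and 0.55, and with replicate 2 turned -2.65, 0.13 and 0.07. The 7 Y-prime helicase genes had a shift of 0.02 ± 0.45, the 4 THI5 genes 0.01 ± 0.48, the 8 subtelomeric HXT genes 0.44 ± 0.99 and the 5 FLO genes -0.17 ± 0.85. With the values as deposited, a shift of the size of the COS shift was thus also seen in the AAD family. The HXT shift was as large, with the opposite sign and a wider spread. AAD4, AAD15 and AAD10 had means of -0.80, -0.71 and -0.45, and of -0.73, -0.21 and 0.09 relative to their neighbours. HXT15 was at 1.40 ± 0.92 (limma's unadjusted p = 0.0125, adjusted p = 0.834) and at -0.13 on replicate 1. With replicate 2 turned the HXT shift was 0.66 ± 0.80, below 0 on 0 of 4 arrays. Turning replicate 2 changed the sign of the shift for the ESCRT genes (-0.08), DUP240 (-0.58), THI5 (-0.34) and Y-prime (-0.07). The genes of the tagged proteins stood at 0.23 ± 0.88 for YRA1 and -0.23 ± 0.78 for MEX67.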

How the data were processed

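Members, gene lists and comparisons were chosen with earlier results of these data known. Each deposited value is the log10 ratio of a spot. The log base was worked out from the values: of 2000 spots drawn per array, 1.5 to 18.4% were, in base 10, quotients of integers of at most 3000 (tolerance 1e-09 log units), against at most 0.55% in base 2 or e. How the slides were scanned, corrected for background and normalized was not given in the sources used here. Per the labels, the 5 arrays form 1 group.

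Values were converted to log2, centred on each array's median and averaged over a gene's spots. Names came from the platform annotation and RefSeq (assembly R64), where 5534 of 5539 genes were found. For replicates 2 to 5, 11138 of 12800 spots had 1 gene, and 1662 had none and were not used. For replicate 1, 6695 of 7680 had 1 gene and 985 none. A row without a numeric ID was left out (1 row), and 2 IDs on 2 rows each were merged.

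The 4 ratios of a gene were tested against 0 with limma 3.58.1 in R 4.3.3 (lmFit, eBayes), two-sided, Benjamini-Hochberg over all genes with at least 3 values, threshold 0.05. It was tested on simulated data. The shift of a family is the difference of its median from that of genes outside both families, given as mean and SD over arrays with no p. In each family, the text names the 6 genes of smallest p, the 2 lowest and 2 highest means and the 2 largest SDs, and from each other list up to 3 of smallest p, of which some are printed. Python 3.11.15 made the summaries. Alternatives changed the neighbouring level, shared values, orientation of replicate 2, scaling, centring, spot summary, platform, moderation, weights, the shared title code, arrays left out and the set of members. Those on the set of members (without COS111, without PAU7 and PAU19, genes near chromosome ends) and the counts of genes with replicate 2 turned were chosen after seeing the data. Protein identity of the copies was not analysed here. The number of arrays limits the precision.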

Additional observations from a re-analysis of the deposited data

Results flagged for a closer look

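Of 21 groups of 4 arrays examined for 1 array far from the other three, 2 stood out, where chance flags about 1 in 20. PAU7 was at -6.48 on replicate 5, against -1.02 to -0.20 on the other arrays. Both of its spots there held a value shared with a neighbouring spot, and the neighbouring level was -5.90. The within-array SD of the COS genes relative to all genes was 0.93 on replicate 2, against 0.57 to 0.60 on replicates 3 to 5. Without COS111 it was 0.78 on replicate 2.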

How the results depend on the processing

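In all 16 settings 0 genes and 0 members passed limma's adjusted threshold, with a smallest adjusted p of 0.727, and at an unadjusted p under 0.05 there were 231 to 367 genes and 0 to 4 members (main: 300 genes, 0 members). The 4 members were seen with the neighbouring level removed. The share of these unadjusted calls that were higher was 26.3%, and it was 38.8% centred on the mean, 59.0% with replicate 2 turned, 40.4% with the neighbouring level removed, 56.7% without moderation, 39.2% with array weights and 38.2% without replicate 2. The seripauperin shift of -0.18 was -0.0096 with the neighbouring level removed and 0.014 with replicate 2 turned; the second of these has the opposite sign. In both cases the cause was not tested. The COS shift was -0.43 to -0.23 in every setting run. Leaving out each array in turn gave -0.23 to -0.11 for the seripauperin shift, -0.43 to -0.28 for COS, 0.11 to 0.31 for their difference, 1.00 to 1.32 for the seripauperin SD quotient and 0.59 to 0.71 for that of COS. Of the 16 named members, 7 changed sign with replicate 2 turned and at most 2 in any other setting. With shared values left out, 27 of 35 members could be tested. A random block for the code shared by the titles of replicates 3 and 5 could not be fitted, since duplicateCorrelation gave a correlation for 0 genes, and the analysis of protein identity was not run. The ratio of each array is itself the comparison of the 2 precipitates, so no further pairing was made. Signal over background could not be assessed from ratios.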
